A study of Mus musculus with 12 samples.

Results

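The interaction of proline and budesonide was examined in E14 mouse embryonic stem cells, an established line grown as a 2-dimensional culture. All 12 libraries of the series entered, in 4 groups of 3. The control cells were untreated, and the other groups had received proline, budesonide or proline and budesonide together, each for 72 h. The labels give no dose and no day of treatment for the control, and they do not say whether replicates were separate cultures, so the spread that p-values are set against is that of libraries and may be technical in origin. RNA was read with a 3′ tag method (QuantSeq) that makes 1 fragment per polyadenylated transcript. The quantity described is the difference between the proline effect with budesonide and the proline effect without it, on the log2 scale. A value of 0 means that the effects of the compounds multiply. A positive value means that cells given both held more of a transcript than the separate effects predict, and a negative value means less. Of 53819 gene symbols listed, 25076 had a count, and 13852 passed the low-count filter and were tested.

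L-Proline is a non-essential amino acid. Added to the medium, it is known to move mouse embryonic stem cells away from the naive state, that of the preimplantation epiblast, and to raise genes of the early postimplantation (formative or primed) epiblast. Budesonide is a synthetic glucocorticoid, used as an anti-inflammatory drug, which binds the glucocorticoid receptor Nr3c1, a ligand-dependent transcription factor, and it is known as a compound that opposes this response to proline. The naive state is held by a network of transcription factors that includes Esrrb, Tfcp2l1, Klf4, Klf2, Tbx3 and Nanog, and the transition out of it raises Pou3f1 and Otx2 and the de novo DNA methyltransferases Dnmt3a and Dnmt3b.

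The interaction passed an adjusted p of 0.05 for 65 genes, 0.469% of those tested. Cells with both compounds held more than the separate effects predict of 57 genes (0.411%), led by naive factors such as Tbx3, Tfcp2l1 and Esrrb, and less of 8 genes (0.0578%), led by Pou3f1 and Pim2. Each of the 57 fell with proline alone and each of the 8 rose with proline alone. The interaction contains the same control and proline libraries, so calling on it favours these signs. For 54 of the 57 and 5 of the 8 the proline effect passed the test without budesonide and did not pass it with budesonide. That share, 59 of 65 (90.8%), is near the one over all genes called for proline without budesonide, of which 966 of 1091 (88.5%) were not called with it, so it is not particular to the called genes. For the other 3 and 3 it passed in both settings, with the same sign and a smaller size with budesonide. These 6 were Tfcp2l1, Rif1, Mras, Pou3f1, Pim2 and Dnmt3b. No called gene had a proline effect that was larger with budesonide, that had the opposite sign and passed the test, or that passed the test only in the presence of budesonide.

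The 5 simple comparisons put this in scale. Proline changed 1091 genes without budesonide (7.88% of those tested, 439 higher and 652 lower) and 203 genes with budesonide (1.47%, 121 higher and 82 lower). Budesonide changed 902 genes without proline (6.51%) and 1399 with proline (10.1%). Cells with both compounds differed from the untreated control in 993 genes (7.17%). These comparisons share libraries with one another and with the interaction, and the counts are given only as the background. An unadjusted p under 0.05 for the interaction was reached by 1198 genes. The median interaction over all tested genes was 0.034, with quartiles of -0.345 and 0.441. At the threshold Hspb1, a small heat shock protein, was the last gene inside (adjusted p = 0.0491) and Smim14 the next gene outside (log2 interaction 1.43, adjusted p = 0.0566).

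**Figure D1:**
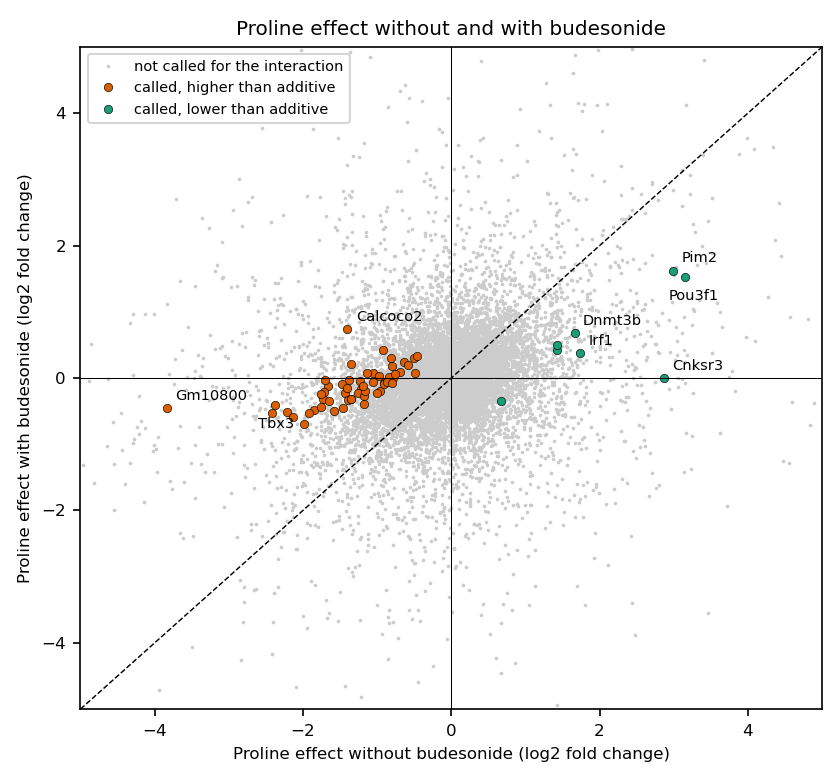
Proline effect without budesonide (x axis) and with budesonide (y axis), both as log2 fold change, for the tested genes within the axis limits (grey) and the called genes (orange higher and green lower than additive), without the 2 called genes that had no count in the proline libraries. The axes share no library. Points on the dashed diagonal have no interaction, so called genes lie off it by construction. Most lie near the horizontal line of no proline effect with budesonide, which 59 of the 65 did not leave past the test, while Pim2 and Pou3f1 lie above it.

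Single libraries moved the counts. The number of genes above the additive level ranged from 37, without the first library of both compounds, to 77, without the third control library. The number below it ranged from 5, without the third proline library, to 12, without the third control library. Total counts were between 5299430 and 8477120 per library, apart from 15921300 in the first proline library. The share of counts on Rn18s, a ribosomal RNA gene, was 2.55% ± 0.303 (SD, n = 3) in controls, 2.87% ± 0.519 with proline, 4.36% ± 2.22 with budesonide and 4.51% ± 1.39 in the combined group. Its part in the results was not tested. The third control and the third budesonide library held the largest shares of tested genes at 0, 6.57% and 8.43%, against 1.39% to 5.77% in the others. With both of these left out, 83 genes were above and 11 below the additive level, and 51 of the 65 were among them. In all 12 fits with 1 library left out 34 genes were called, 29 above and 5 below. The other 31 were called in 1 to 11 of the 12 fits. Every one of the 65 kept its sign in all alternatives run. The text gives library values mainly for genes among the 34.

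The bases before the start of 4 of these genes are shown because they belong to leading members in each direction and because the reference table holds them. They are 250 bases upstream of a transcript start, 5′ to 3′ in the direction of transcription, from RefSeq on build GRCm38.p6. The submitters' processing notes name GRCm39, so these positions are not those of the count table. Capitals mark the letters AGAACA, one side of the palindrome that the glucocorticoid receptor binds; these letters and their reverse complement TGTTCT were searched.
Tfcp2l1, chr1:118627695-118627944, plus strand: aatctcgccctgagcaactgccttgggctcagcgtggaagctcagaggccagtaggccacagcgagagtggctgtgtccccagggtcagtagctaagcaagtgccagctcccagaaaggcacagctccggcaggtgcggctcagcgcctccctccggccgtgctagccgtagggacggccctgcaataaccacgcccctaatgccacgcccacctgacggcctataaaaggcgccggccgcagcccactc
Mylpf, chr7:127211358-127211607, plus strand: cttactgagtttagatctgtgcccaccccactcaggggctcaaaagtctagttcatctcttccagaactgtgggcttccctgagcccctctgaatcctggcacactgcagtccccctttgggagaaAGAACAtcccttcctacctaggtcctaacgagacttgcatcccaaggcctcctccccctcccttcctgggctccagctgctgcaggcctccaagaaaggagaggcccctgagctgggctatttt
Pim2, chrX:7878056-7878305, plus strand: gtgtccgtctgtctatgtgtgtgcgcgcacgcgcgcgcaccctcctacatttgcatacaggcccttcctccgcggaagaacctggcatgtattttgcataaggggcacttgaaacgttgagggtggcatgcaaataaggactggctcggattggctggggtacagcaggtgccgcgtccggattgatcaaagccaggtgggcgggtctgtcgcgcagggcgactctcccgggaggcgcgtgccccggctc
Dnmt3b, chr2:153649199-153649448, plus strand: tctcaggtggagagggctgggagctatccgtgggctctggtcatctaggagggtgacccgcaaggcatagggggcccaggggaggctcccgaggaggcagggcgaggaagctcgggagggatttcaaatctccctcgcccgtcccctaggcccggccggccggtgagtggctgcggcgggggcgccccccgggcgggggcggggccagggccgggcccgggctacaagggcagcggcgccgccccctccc
Among these 4 windows only that of Mylpf holds the letters. Promoter windows of 300 bases (250 before to 50 after the start) were found for 42 of the 65 called genes, and 7 of the 42 (16.7%) hold AGAACA or TGTTCT, against 14.4% of the 10057 tested genes with a window. The letters TGATGNAAT, bound by Atf4 with its partners in the amino acid response, were in 1 of the 42 (2.38%) and in 0.527% of the tested genes. A match is a description of letters and not a binding site.

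Naive pluripotency genes were 8 of the 57 above the additive level. Of 28 tested members of a naive list, 18 fell with proline alone, beside 652 of all 13852 tested genes. Of the 28, 8 were called above the additive level and none below, beside 57 (0.411%) and 8 (0.0578%) over all tested genes. The median interaction of the 28 was 0.87, beside 0.034 over all tested genes, and 27 of the 28 had a positive estimate, beside 7289 of 13852. In bulk RNA, fewer cells of a state and less RNA per cell cannot be told apart. The summed level of the list was 4791 to 5186 CPM (the count scaled to the size of the library) in control libraries, 2624 to 2760 with proline, 5704 to 6315 with budesonide and 5380 to 5666 with both compounds. Without Klf2 the sum was 4337 to 4722 CPM in controls and 4638 to 4875 with both, which overlap. The mean with both compounds was below the control mean for 5 of the 8 called genes.

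Tfcp2l1, a transcription factor of the naive network downstream of LIF and Stat3, read 233, 232 and 250 CPM in control libraries, 48.5, 55.7 and 50.2 with proline, 266, 273 and 272 with budesonide and 185, 179 and 208 with both. The level predicted for both compounds from the separate effects was 58.4 CPM. The libraries with both compounds lay below the controls and far above the proline libraries, without overlap in either direction. The difference from the controls did not pass its test (adjusted p = 0.0992). Its interaction was 1.71 ± 0.17 (SE, log2; adjusted p = 3.82e-06). Its proline effect was -2.21 without and -0.51 with budesonide on the log2 scale.

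Esrrb, an orphan nuclear receptor that binds with Nanog and Pou5f1, read 341, 346 and 441 CPM in controls, 128, 124 and 103 with proline, 383, 395 and 324 with budesonide and 327, 293 and 398 with both. The predicted level was 116 CPM. The proline libraries stood apart, and the other 3 groups overlapped. The interaction was 1.55 ± 0.19 (adjusted p = 0.000162).

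Zfp42 (Rex1), a zinc finger gene used as a reporter of the naive state, read 176, 118 and 130 CPM in controls, 56.7, 49.6 and 59.2 with proline, 95.5, 93.0 and 119 with budesonide and 125, 108 and 122 with both. With both compounds it overlapped the controls, and each of these libraries was above 2 of the 3 budesonide libraries. The interaction was 1.56 ± 0.23 (adjusted p = 0.000949). Klf4, a zinc finger factor under LIF and Stat3, read 177, 193 and 137 CPM in controls, 59.3, 57.4 and 65.9 with proline, 177, 140 and 135 with budesonide and 150, 147 and 129 with both. Again the proline libraries alone stood apart, and the interaction was 1.39 ± 0.21 (adjusted p = 0.00129). Jam2, a junctional adhesion molecule that marks naive cells, read 212, 172 and 169 CPM in controls, 51.9, 51.8 and 63.6 with proline, 186, 174 and 167 with budesonide and 137, 143 and 142 with both. With both compounds Jam2 lay below the controls without overlap, though that comparison did not pass its test. Its interaction was 1.41 ± 0.19 (adjusted p = 0.000329).

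Nanog and Klf2 were called with less margin. Nanog, a homeodomain factor, read 260, 214 and 178 CPM in controls, 100, 131 and 102 with proline, 268, 238 and 308 with budesonide and 284, 265 and 285 with both. Its interaction was 1.01 ± 0.20 (adjusted p = 0.0173). The call of Nanog ended without the first control library (adjusted p = 0.0726), proline library 1 (0.0730) or 3 (0.0666), the second budesonide library (0.0579) or the first library of both compounds (0.0548). The interaction of Klf2, a Krüppel-like factor, was 0.78 ± 0.15 (adjusted p = 0.0143). The call of Klf2 ended without the second control library (adjusted p = 0.0627), the first budesonide library (0.0541) or the second library of both compounds (0.0623).

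The other 20 naive genes did not pass the interaction test. Klf5, a Krüppel-like factor, had an interaction of 0.56 (95% interval 0.28 to 0.84, adjusted p = 0.0677). Fbxo15, an F-box protein gene and target of Pou5f1, had 0.76 (0.37 to 1.14, adjusted p = 0.0692). Tcl1, a cofactor of Akt kinase, had 0.96 (0.47 to 1.45, adjusted p = 0.0786). These 3 fell with proline alone, and their intervals for the interaction lie above 0 before adjustment over all genes. For Nr5a2, a nuclear receptor upstream of Pou5f1, the interval was 0.21 to 1.15 (adjusted p = 0.299). The LIF receptor chains Lifr (0.48, interval -0.09 to 1.04) and Il6st (0.34, -0.23 to 0.90) and Stat3 itself (0.32, -0.18 to 0.82) had intervals that span 0. Gbx2, a homeobox target of Stat3, was the member with a negative estimate (-0.47, interval -1.18 to 0.24).

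**Figure D2:**
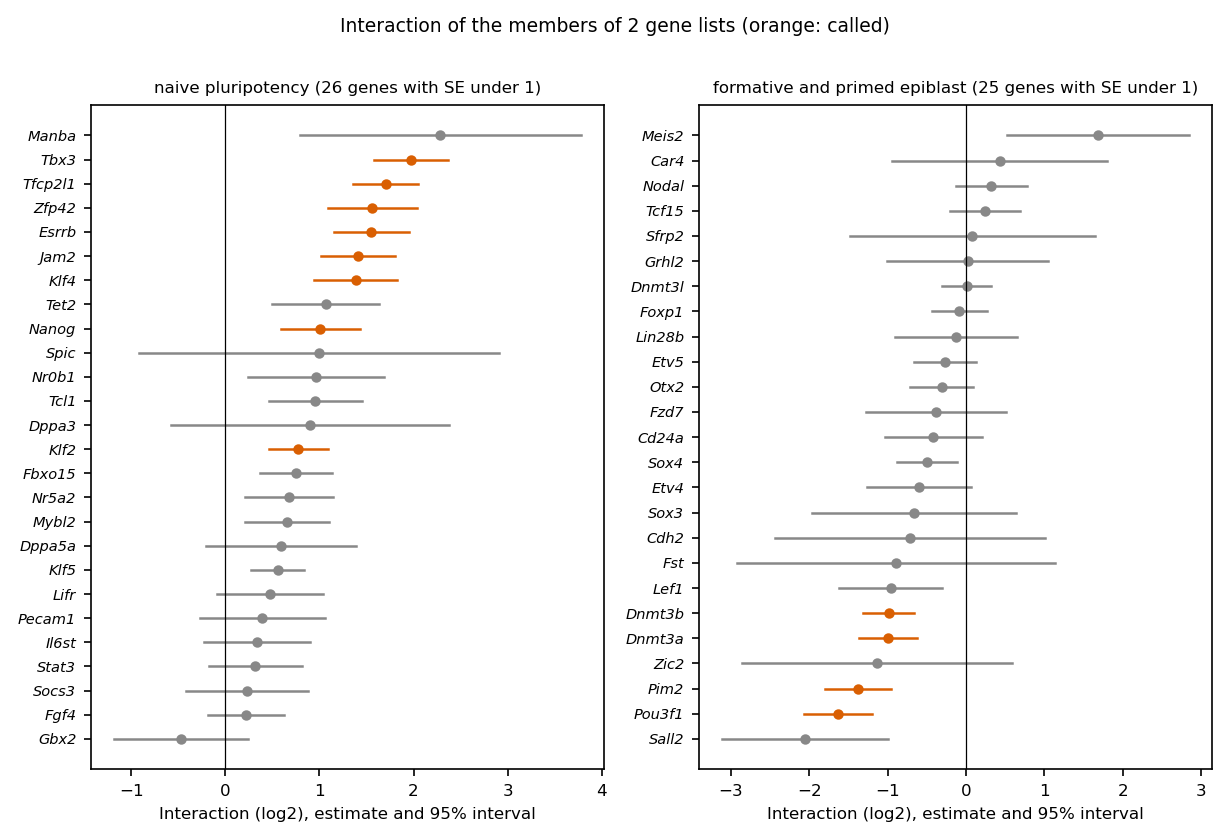
Log2 interaction (x axis) with its 95% interval for the members of the naive list (left, 26 genes) and of the formative and primed list (right, 25 genes) whose standard error is under 1; called genes are orange. The 8 called naive genes lie right of 0 and the 4 called formative genes left of 0. Of all 28 tested naive genes 16, the 8 called among them, had an unadjusted p under 0.05 for the interaction.

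Genes that proline raised made the other direction. Pou3f1 (Oct6), a POU factor of the early postimplantation epiblast and of neural progenitors, read 45.3, 63.2 and 50.4 CPM in controls, 507, 390 and 516 with proline, 45.8, 53.5 and 46.6 with budesonide and 150, 146 and 123 with both. The predicted level for both was 432 CPM. Cells with both compounds held more Pou3f1 than any control library and less than any proline library. The interaction was -1.63 ± 0.21 (adjusted p = 0.000183), and the proline effect went from 3.15 to 1.52 on the log2 scale.

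Pim2, a serine/threonine kinase that promotes survival, read 39.8, 44.5 and 54.0 CPM in controls, 373, 391 and 340 with proline, 25.9, 22.8 and 28.1 with budesonide and 74.6, 80.9 and 81.5 with both. No groups overlapped, and budesonide lowered Pim2 also without proline (-0.85 on the log2 scale). The interaction was -1.37 ± 0.20 (adjusted p = 0.000967).

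The methyltransferases Dnmt3b and Dnmt3a, which place new DNA methylation as the epiblast implants, went the same way. Dnmt3b read 378, 380 and 389 CPM in controls, 1252, 1125 and 1259 with proline, 307, 287 and 225 with budesonide and 444, 431 and 435 with both. The predicted level was 865 CPM, and the interaction was -0.99 ± 0.16 (adjusted p = 0.00166). Dnmt3a read 109, 123 and 99.5 CPM in controls, 304, 301 and 287 with proline, 84.1, 78.6 and 79.3 with budesonide and 102, 104 and 120 with both, which overlaps the controls. The interaction of Dnmt3a was -0.996 ± 0.18 (adjusted p = 0.00687). Dnmt3l, their catalytically inactive partner, was not changed past the test by proline, and its interaction was 0.01 (95% interval -0.30 to 0.33). Both called enzymes belong to a list of DNA methylation genes. Of its 18 tested members 2 were called, beside 0.469% over all tested genes. The median interaction of the 18 was 0.04.

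Pou3f1, Pim2, Dnmt3b and Dnmt3a were the 4 called members of 27 tested formative and primed genes, all below the additive level. Over all tested genes 8 of 13852 (0.0578%) were called below it. The median interaction of the 27 was -0.42, beside 0.034 over all tested genes. Of the 27, 12 rose with proline alone, beside 439 of all 13852 tested genes. For other members the interaction did not pass the test, which leaves its size undecided. Otx2, a homeodomain factor that starts the exit from the naive state, rose with proline by 1.22 without and by 0.91 with budesonide on the log2 scale. Its interaction was -0.31 with an interval of -0.72 to 0.10 (adjusted p = 0.720). Cd24a, a surface sialoglycoprotein, rose by 1.44 and by 1.02 (interaction -0.42, interval -1.04 to 0.21). Car4, a carbonic anhydrase, rose by 2.43 and by 2.86 (interaction 0.43, interval -0.95 to 1.81). Foxp1, a forkhead factor, had an interval of -0.43 to 0.26. Sall2, a spalt-like zinc finger gene, had a larger estimate than the called members (-2.05, interval -3.11 to -0.99) and did not pass (adjusted p = 0.0789). Lef1, a Wnt effector (-0.96, interval -1.62 to -0.30), and Sox4 (-0.50, interval -0.88 to -0.12) did not pass either.

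Irf1, an interferon-regulated factor, differed from the others in that each compound raised it alone. It read 30.6, 45.5 and 39.6 CPM in controls, 146, 95.3 and 145 with proline, 72.0, 73.6 and 79.9 with budesonide and 99.2, 107 and 86.4 with both. The libraries with both compounds were below the 251 CPM predicted and overlapped those with proline. The interaction was -1.36 ± 0.25 (adjusted p = 0.00864). Cnksr3, a scaffold protein of the epithelial sodium channel complex that mineralocorticoids induce, had the same pattern at a low level. It read 4.91, 3.47 and 1.39 CPM in controls, 21.2, 23.7 and 26.3 with proline, 10.7, 9.92 and 6.85 with budesonide and 10.9, 9.94 and 6.67 with both. The libraries with both compounds overlapped those with budesonide alone, at an interaction of -2.86 ± 0.57 (adjusted p = 0.0163). The call of Cnksr3 ended without the third proline library (adjusted p = 0.0700) or the third library of both compounds (0.0595). The lactate exporter Slc16a3 (-0.92 ± 0.20, adjusted p = 0.0392) and the carbonic anhydrase Car2 (-1.02 ± 0.23, adjusted p = 0.0448) complete the 8. Slc16a3 was called in 4 of the 12 fits with 1 library left out, those without control 3, proline 2, budesonide 1 or combined library 2, and its adjusted p was otherwise up to 0.156. Car2 was called in 3 of the 12, those without control 1, proline 1 or budesonide 2, and its adjusted p was otherwise up to 0.170.

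The 57 genes above the additive level fell into 3 patterns by what budesonide did alone. The patterns come from the same libraries as the interaction and are a description. In 38 genes budesonide alone passed no test. Their median proline effect was -1.37 without and -0.21 with budesonide, and their median interaction was 1.15. The 2 genes without a count in the proline libraries lie far above this median even at their floor (6.02 and 4.38). Setting them there therefore could not move it. Against the control, cells with both compounds did not differ past the test in 28 of the 38, were lower in 9 and higher in 1. In 8 genes budesonide alone raised the level, and with both compounds 7 of the 8 were above the control. In 11 genes budesonide alone lowered the level as proline did, and with both compounds 9 of the 11 were below the control.

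**Figure D3:**
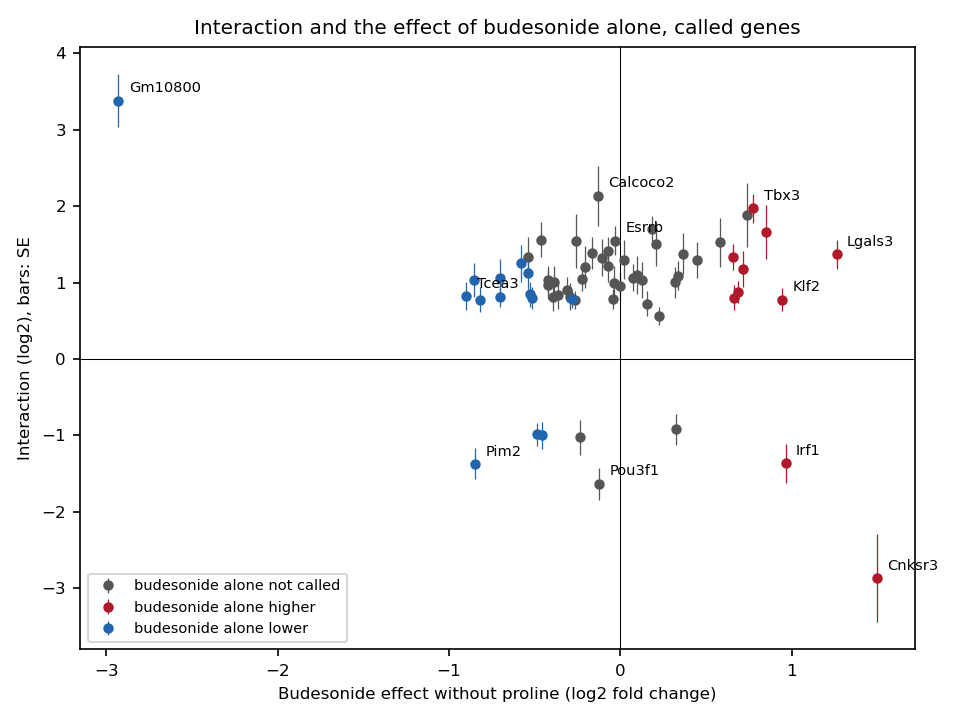
Budesonide effect without proline (x axis, log2 fold change) and interaction (y axis, log2, bars show the SE) for 63 called genes, coloured by whether budesonide alone passed the test. The axes share the control and budesonide libraries. Genes above the additive level are found at budesonide effects on either side of 0, with Gm10800 far to the left, and the 8 genes below the additive level also lie on both sides.

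Tbx3, Mylpf, Lgals3, Apoe, Klf2, Trps1, Slc2a3 and Nid1 were the 8 that budesonide raised. Trps1 lies outside the rule for named genes. It was called in 9 of the 12 fits with 1 library left out. Its call also ended with transcript length and GC content entered as offsets (adjusted p = 0.0506). Tbx3, a T-box factor of the naive network, read 114, 122 and 123 CPM in controls, 24.9, 20.4 and 23.5 with proline, 223, 195 and 197 with budesonide and 148, 163 and 153 with both. The predicted level was 39.2 CPM. All 4 groups were separate, and the level with both lay between control and budesonide. It did not differ past the test from the control (adjusted p = 0.0923) or from budesonide alone (0.134). The interaction was 1.97 ± 0.19 (adjusted p = 3.82e-06), and the budesonide effect was 0.78 without and 2.75 with proline on the log2 scale.

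Lgals3, which encodes the sugar-binding protein galectin-3, read 110, 133 and 122 CPM in controls, 32.3, 31.1 and 38.3 with proline, 268, 282 and 327 with budesonide and 221, 192 and 216 with both (interaction 1.37 ± 0.19, adjusted p = 0.000375). Mylpf, a regulatory light chain of fast skeletal muscle myosin whose promoter is printed above, read 163, 162 and 168 CPM in controls, 71.6, 60.2 and 57.5 with proline, 265, 248 and 265 with budesonide and 274, 254 and 231 with both. With proline present Mylpf was thus as high as with budesonide alone, and its interaction was 1.34 ± 0.17 (adjusted p = 0.000183).

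Apoe, an apolipoprotein that carries lipids between cells, read 547, 608 and 683 CPM in controls, 404, 379 and 400 with proline, 969, 1074 and 911 with budesonide and 1140, 1198 and 1152 with both. Here the libraries with both compounds exceeded all others, including those with budesonide alone, though the difference from budesonide alone did not pass its test (adjusted p = 0.290). The interaction was 0.88 ± 0.14 (adjusted p = 0.00239). Slc2a3, a high-affinity glucose transporter, had 0.80 ± 0.16 (adjusted p = 0.0180), and its call ended without proline library 1 (adjusted p = 0.0527), budesonide library 1 (0.0598) or combined library 1 (0.0548) or 3 (0.0714). Nid1, a basement membrane glycoprotein, had 1.66 ± 0.35 (adjusted p = 0.0288) and was called in 5 of the 12 fits with 1 library left out, those without control 2, control 3, proline 2, budesonide 3 or combined library 3. Otherwise its adjusted p was up to 0.106.

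**Figure D4:**
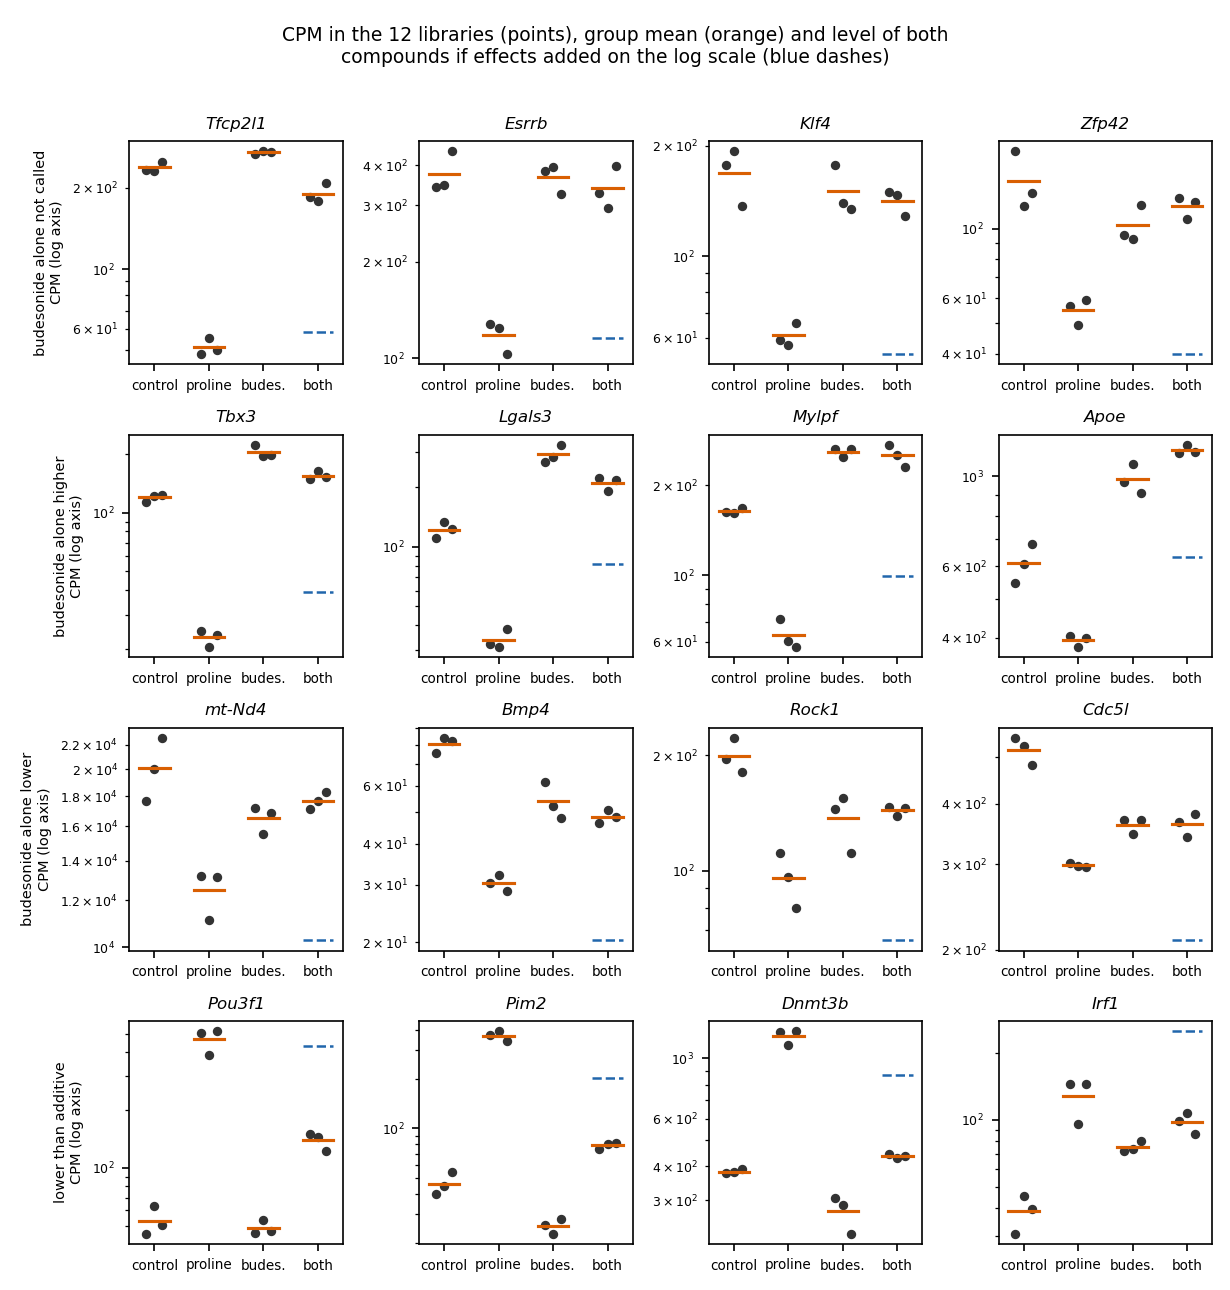
CPM (y axis, log scale) of 16 called genes in the 12 libraries (points), with the mean of each group (orange line) and the level predicted for both compounds when effects add on the log scale (blue dashes). Rows are genes that budesonide alone did not change past the test, genes it raised, genes it lowered, and genes below the additive level; the points for both compounds lie above the dashes in the upper 3 rows and below them in the bottom row.

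In the 11 genes that each compound lowered alone, the median change with both was no larger than with either. It was -0.83 for proline alone, -0.70 for budesonide alone and -0.62 for both against control on the log2 scale. Cdc5l, a core spliceosome component, read 546, 525 and 479 CPM in controls, 302, 298 and 296 with proline, 370, 346 and 370 with budesonide and 367, 342 and 382 with both. The levels with both overlapped those with budesonide, and the interaction was 0.80 ± 0.14 (adjusted p = 0.00714). Rock1, a kinase that drives actomyosin contraction, read 196, 221 and 181 CPM in controls, 111, 96.4 and 80.2 with proline, 145, 155 and 111 with budesonide and 147, 139 and 146 with both (interaction 1.12 ± 0.21, adjusted p = 0.00882). Cdc5l and Rock1 lie outside the rule for named genes and were chosen after their values were seen, as were the other genes of this pattern apart from Bmp4, mt-Nd4 and mt-Nd2.

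Bmp4, a secreted ligand that with LIF sustains self-renewal, read 75.8, 84.0 and 82.4 CPM in controls, 30.4, 32.1 and 28.6 with proline, 61.6, 52.1 and 47.9 with budesonide and 46.3, 50.7 and 48.2 with both. The predicted level was 20.3 CPM. Its interaction was 1.25 ± 0.24 (adjusted p = 0.0125), and the call ended without the second control library (adjusted p = 0.0521). Gm10800, a predicted gene, had the largest estimate in this pattern (3.38 ± 0.34, adjusted p = 5.06e-06). It read 285 to 365 CPM in controls, 11.9 to 30.9 with proline, 29.9 to 55.7 with budesonide and 29.4 to 31.6 with both. Whether reads of repeats or near-identical copies contribute to Gm10800 is not given in the sources used here, and its value is uncertain. The remaining members were Kif5b and Kif20b, which encode kinesins, the chromatin protein gene Dek, Hsd17b14 and Tcea3, with interactions of 0.78 to 1.07. They were called with less margin. Of the 12 fits with 1 library left out, Kif5b was called in 7 and Kif20b in 5. Dek was called in 4 of them, Hsd17b14 in 3 and Tcea3 in 1. With the length and GC offsets the calls of Kif5b, Dek and Tcea3 ended, and those of Kif20b and Hsd17b14 did not. The call of Tcea3 also ended with DESeq2 size factors.

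Mitochondrially encoded transcripts gave 3 called genes of 7 tested, all above the additive level, beside 0.411% called above it over all tested genes. mt-Nd4, a complex I subunit, read 17699, 20024 and 22586 CPM in controls, 13191, 11114 and 13133 with proline, 17192, 15515 and 16890 with budesonide and 17110, 17655 and 18291 with both (interaction 0.79 ± 0.12, adjusted p = 0.00129). mt-Nd2, a subunit of the same complex, had 0.81 ± 0.13 (adjusted p = 0.00235), and mt-Cytb of complex III had 0.56 ± 0.12 (adjusted p = 0.0214). The 4 others tested, mt-Nd1, mt-Nd5, mt-Nd6 and mt-Co1, did not pass, with estimates of 0.33 to 1.01. The 7 tested genes together held 5.998% ± 0.0897 (SD, n = 3) of all counts in controls, 4.20% ± 0.0339 with proline, 6.31% ± 0.382 with budesonide and 6.35% ± 0.137 with both. When transcript length and GC content were entered as offsets, an alternative added after the data were seen, the calls ended for mt-Nd4 (0.55, adjusted p = 0.195), mt-Nd2 (0.52, adjusted p = 0.122) and mt-Cytb (0.36, adjusted p = 0.375). The call of mt-Cytb also ended without control library 1 (adjusted p = 0.0527) or 2 (0.0532), proline library 1 (0.0635) or 3 (0.0738) or combined library 3 (0.0603). The part of this share in the result was not tested.

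Other called genes whose level budesonide alone did not change past the test included several with large counts. Rif1, a telomere and replication-timing protein, read 1334, 1229 and 1245 CPM in controls, 597, 531 and 562 with proline, 1274, 1204 and 1217 with budesonide and 977, 923 and 925 with both (interaction 0.78 ± 0.13, adjusted p = 0.00235). With both compounds Rif1 stayed below all control libraries and above all proline libraries. Eif2s2, the beta subunit of translation initiation factor eIF2, read 2773, 2711 and 3075 CPM in controls, 1580, 1413 and 1418 with proline, 2403, 2382 and 2330 with budesonide and 2050, 2080 and 2112 with both. Its interaction was 0.77 ± 0.12 (adjusted p = 0.00145), and with the length and GC offsets it was 0.64 (adjusted p = 0.0506).

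Calcoco2, an autophagy receptor, was higher with both compounds than in any other library: it read 22.3, 21.2 and 31.9 CPM in controls, 12.2, 8.73 and 7.36 with proline, 17.1, 23.1 and 28.7 with budesonide and 43.8, 37.3 and 33.9 with both. The interaction of Calcoco2 was 2.14 ± 0.39 (adjusted p = 0.00746). The level with both compounds did not differ past the test from the control (adjusted p = 0.205) or from budesonide alone (0.207). Ncam1, a neural cell adhesion molecule, read 74.9, 58.2 and 55.4 CPM in controls, 20.2, 13.5 and 23.8 with proline, 72.4, 71.3 and 73.9 with budesonide and 60.7, 56.9 and 71.2 with both (interaction 1.51 ± 0.28, adjusted p = 0.00920). Only the proline libraries of Ncam1 stood apart from the rest.

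Over all tested genes 0.469% were called for the interaction. Of 23 tested basement membrane and collagen genes 2 were called, Nid1 above and Lama1, a laminin chain (interaction 1.30 ± 0.26, adjusted p = 0.0155). The call of Lama1 ended without the first budesonide library (adjusted p = 0.0502) or the third library of both compounds (0.0603). Of 23 tested mesenchymal transition genes 2 were called, beside the same 0.469%. They were Ahnak, a large scaffold protein (1.38 ± 0.27, adjusted p = 0.0138), whose call ended without the third library of both compounds (adjusted p = 0.0504) and with the length and GC offsets (0.0552), and S100a6, a calcium-binding protein (0.99 ± 0.22, adjusted p = 0.0428), which was called without the third control library and in no other of the 12 fits with 1 library left out, nor with the offsets (adjusted p = 0.0713). Ahnak and S100a6 fell with proline alone.

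Among called genes that budesonide alone did not change past the test, 10 more were called in all 12 fits with 1 library left out and lie outside the rule for named genes; they are given after their values were seen. They were Arid5b, a DNA-binding cofactor, Spp1 (osteopontin), Pdgfa (a platelet-derived growth factor chain), Epha4 (an ephrin receptor), Mras (a Ras-like GTPase), Bod1l, the kinetochore proteins Cenpf and Cenpe, Zfp936 and Scarb2, a lysosomal membrane protein. Their interactions lay between 0.91 (Cenpf) and 1.33 (Scarb2), and each fell with proline alone. Spp1 read 171 to 249 CPM in controls, 69.1 to 89.8 with proline, 179 to 216 with budesonide and 165 to 177 with both, so that the proline libraries again stood apart.

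The remaining genes of this pattern were called with less margin. Ahnak2, a paralogue of Ahnak, had an interaction of 1.89 ± 0.42 (adjusted p = 0.0392), and of the 12 fits with 1 library left out it was called in that without proline 3, with an adjusted p otherwise up to 0.139. Mymx, a fusion protein of muscle cells, had 1.55 ± 0.35 (adjusted p = 0.0442) and was called without control 2 or combined library 2, with an adjusted p otherwise up to 0.161. Hspb1 had 0.72 ± 0.17 and was called in 3 of the 12, those without control 1, proline 1 or budesonide 2, with an adjusted p otherwise up to 0.173. Epop, Laptm5, Aspm, Resf1, Hmces, Tubb2b, Dpysl3 and Slc28a1, named after their values were seen, had interactions of 0.81 to 1.21.

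In 2 genes no read was counted in any proline library. Gm13223, a predicted gene outside the rule for named genes, had 171 counts over the control, 172 over the budesonide and 108 over the combined libraries. Bcas3os1, an antisense gene, had 66, 158 and 83. With the proline group set at a floor of 3 counts, the control level as counted was 93.7-fold higher than proline for Gm13223 and 36.2-fold higher for Bcas3os1. The level with both compounds was 50.5-fold and 38.8-fold higher. These ratios allow for counting error in the proline group only, not for that of the other groups or the spread between libraries. They rest on proline library 1, without which they are 44.7 and 17.3 for the control and 24.1 and 18.5 for both compounds. Reads of Bcas3os1 and of its partner on the other strand cannot be told apart where strand was not used in counting, which is not given in the sources used here. The call of Bcas3os1 (adjusted p = 0.0392) ended in 9 of the 12 fits with 1 library left out, those other than the fits without control 1, budesonide 3 or combined library 3, with an adjusted p of up to 0.125.

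The glucocorticoid receptor and its classic induced genes were tested as a list, and none of 26 was called for the interaction by edgeR or limma-voom, 1 by DESeq2, and 5 had an unadjusted p under 0.05. Beside the 0.469% called over all tested genes, this count says nothing particular about the list. Their median interaction was 0.20. The receptor gene Nr3c1 had -0.45 (95% interval -1.35 to 0.45). Fkbp5, a receptor co-chaperone, had 0.44 (interval -0.04 to 0.91), and Klf9 had 0.45 (interval 0.19 to 0.72, adjusted p = 0.168). Nfkbia, an inhibitor of NF-kappaB, rose with budesonide alone (0.83 on the log2 scale) and had an interaction of 0.51 (interval 0.13 to 0.89, adjusted p = 0.363). Mt2, a metallothionein, had -0.46 (interval -0.79 to -0.12, adjusted p = 0.363).

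Genes of the amino acid response are raised by the factor Atf4 when amino acids are short. Of 47 tested Atf4 targets 16 were called for proline alone, 15 of them lower, beside 7.88% of all tested genes. With budesonide 5 of the 16 were called and 11 were not. None of the 47 was called for the interaction by edgeR, DESeq2 or limma-voom, and 3 had an unadjusted p under 0.05 (median interaction 0.10). At the background of 0.469% this count too is no result about the list. Asns, asparagine synthetase, fell by 1.17 without and by 0.82 with budesonide on the log2 scale, with an interaction of 0.36 (interval -0.01 to 0.72). Cth, cystathionine gamma-lyase, fell by 1.35 and by 1.24 (interaction 0.11, interval -0.46 to 0.68). Psat1, a serine synthesis enzyme, fell by 0.65 and by 0.67 (interaction -0.02, interval -0.40 to 0.35). Slc7a1, a transporter of cationic amino acids, fell by 1.41 and by 0.92 (interaction 0.48, interval 0.05 to 0.92, adjusted p = 0.510). Slc1a5, a glutamine transporter, fell by 0.58 and by 0.83 (interaction -0.25, interval -0.77 to 0.27). These 5, named after their values were seen, are the members that passed the proline test in both settings. Among the 11 that did not pass it with budesonide, Trib3, a pseudokinase, had -0.70 without and -0.76 with budesonide, and Ddit3, a stress-induced factor, had -1.91 and 0.36, with an interaction of 2.27 (interval 0.70 to 3.84, adjusted p = 0.303). Whether this list differs from the naive list in its interaction was not tested. Of 17 tested genes of proline metabolism and transport none was called by the 3 tools or had an unadjusted p under 0.05 (median -0.28), and the interval for the proline oxidase Prodh was -1.27 to 0.60.

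In the remaining lists a count of 0 or 1 is near the 0.469% called over all tested genes and says nothing particular about the list. In LIF-Stat3 signalling 4 of 18 tested were called, namely Klf4 and Tfcp2l1 above and Irf1 and Pim2 below the additive level. By edgeR no member was called among 31 cholesterol and fatty acid synthesis genes, 21 imprinted genes, 21 G1 cyclins and cell cycle inhibitors, 20 p53 targets, 19 FGF-ERK genes, 21 haem and antioxidant genes or 12 hedgehog genes. DESeq2 called 1 cholesterol and 3 imprinted genes, limma-voom called 1 in each of these lists, and neither called any in the other lists just named. An unadjusted p under 0.05 was reached by 0 (hedgehog) to 5 (cholesterol, imprinted) members. The Nodal list (1 of 19) and the Wnt target list (1 of 16) were represented by Bmp4 and the general pluripotency list by Rif1 (1 of 16). The glycolysis list (1 of 25) was represented by Slc2a3 and the list of lipid carriers (1 of 14) by Apoe.

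Markers of other cell types were examined beside these results. Among endoderm markers Apoe was the 1 called of 18 tested, and Ttr had no count. The 24 markers other than Apoe summed to 504 to 577 CPM in controls, 461 to 494 with proline, 433 to 459 with budesonide and 400.2 to 415 with both, lowest where Apoe was highest. Primitive streak and mesoderm markers, with Bmp4 called among 11 tested, summed to 226 to 242 CPM in controls, 369 to 480.4 with proline, 349 to 397 with budesonide and 555 to 603 with both, and Cer1 had no count. Bmp4 itself went against this sum, with means of 80.7 CPM in controls, 30.4 with proline, 53.9 with budesonide and 48.4 with both. Feeder fibroblast markers summed to 170 to 240 CPM in controls, 236 to 249 with proline, 213 to 247 with budesonide and 291 to 322 with both, Lum, Postn and Dpt had no count, and none of 8 tested was called. Trophoblast markers (none of 20 called) and 2-cell-like markers (none of 7 called) summed to at most 436 and 26.3 CPM in any library. DESeq2 called 1 trophoblast marker and limma-voom none in these 3 lists, and an unadjusted p under 0.05 was reached by 1 feeder, 5 trophoblast and 0 of the 2-cell-like markers. Neuroectoderm markers, with Ncam1 called among 12 tested, summed to 779 to 1025 CPM in controls, 406 to 468 with proline, 721 to 789 with budesonide and 548 to 624 with both. The part of these cell types in the results was not tested.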

How the data were processed

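Polyadenylated RNA of E14 cells, in 12 samples, was measured with QuantSeq 3′ libraries, per the labels' protocols. The authors deposited 1 table of raw read counts per gene symbol. Tools listed in the submitters' processing notes are STAR 2.7.5c, featureCounts 2.0, cutadapt 2.5, bcl2fastq and DESeq2, and the build is GRCm39. Sources used here do not give strand use or doses.

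Genes were kept by edgeR's filterByExpr (minimum count 10, minimum total 15), libraries were scaled by TMM, and all 12 entered 1 quasi-likelihood fit (edgeR 4.0.16 in R 4.3.3, 1 coefficient per group, 8 residual degrees of freedom). The two-sided F test of the interaction was adjusted by Benjamini and Hochberg over all tested genes and called at 0.05; so were the 5 simple comparisons. Predicted levels are the proline mean times the budesonide mean over the control mean. The fit was also run on counts simulated from a negative binomial model with spreads taken from these data. Such counts cannot show whether that model holds here. Changes were added only to genes of higher level, so recovery in low-count genes was not covered.

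Named genes were, among called genes above 5 CPM in some group and not predicted (Gm or Rik) models, the 12 with the largest interaction and the 10 with the smallest p in each direction, and every called member of 31 gene lists (641 genes); other names are marked in the text, and some genes are not reported here. The comparison, the genes and the lists were chosen with earlier results of these data known. Alternatives were DESeq2 1.42.0, limma-voom 3.58.1, other scalings and filters, a replicate block, libraries left out, a test against a 1.5-fold interaction, addition on the CPM scale, and, added later, length and GC offsets.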

Additional observations from a re-analysis of the deposited data

Results flagged for a closer look

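The effect of proline differed between cells without and with budesonide, by the test of the interaction itself, in 57 genes above and 8 genes below the additive level. No other result was singled out. Groups of 3 libraries were not screened for outliers by a test. Control library 3 and budesonide library 3, which held the most tested genes at 0, were left out together in an alternative fit.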

How the results depend on the processing

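The counts of called genes depended on tool and filter. Without the low-count filter 108 genes were above and 26 below the additive level, and the DESeq2 Wald test gave 129 and 33, with 61 of the 65 genes shared. Against a 1.5-fold interaction 9 and 1 were called, with 5 naive genes above and 1 formative gene below. With 1 library left out, the counts were 37 to 77 above and 5 to 12 below, 7 to 11 for naive and 4 to 5 for formative genes, and the share of called genes with a proline effect called only without budesonide was 80.9% to 94.3%, beside 90.8% with all libraries. With control library 3 and budesonide library 3 left out that share was 78.7%. A replicate block gave 46 calls, all among the 65, and with length and GC offsets as well 30 above and 7 below. Deviations of same-numbered libraries from their group means had correlations of -0.0767 to 0.0529 over genes, and those of other pairs -0.0752 to 0.0819. A pairing that moves few genes would not show in these values. Whether same-numbered samples were handled together is not given in the labels. DESeq2 size factors gave 61 calls, limma-voom 78, a stricter filter 74 and the offsets alone 52. The cause of these differences was not tested, beyond the fewer or more genes and libraries entered. On the CPM scale all 65 kept their sign. For the 37 named genes 629 of 811 tests under the alternatives kept the call, 182 lost it and none changed sign. The median biological coefficient of variation was 0.293, and the depth leaves intervals for low genes that span most effects.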
